A study of Mus musculus with 7 samples.

Results

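The genes described here act in the synthesis, export and use of ketone bodies: *Acat1*, *Bdh1*, *Slc16a6*, *Oxct1* and *Bdh2*. They were taken by gene symbol from a table of read counts in primary mouse hepatocytes, and all 5 were among its 14819 rows. They were selected on their counts in this same comparison of WDR6-WKO with WT, so those values are given as a description. The fit across all genes includes them, and its calls for them carry no independent support. The hepatocytes came from male mice of 2 genotypes, WT (n = 4 libraries) and a whole-body knockout of *Wdr6* made by CRISPR–Cas9 deletion of exon 2 (WDR6-WKO, n = 3 libraries). The deletion was carried by every cell type of the knockout, including liver cells other than hepatocytes. Cells of both genotypes were isolated by collagenase perfusion, kept overnight in William's E medium with fetal bovine serum, and given no treatment, and the age of these mice was not given in the sources used here. The study profiled these cells while looking for how WDR6, a WD40 repeat protein, controls the fatty acid synthase FASN in hepatic lipid synthesis.

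Ketone bodies are made in the mitochondria of hepatocytes from acetyl-CoA, which fatty acid oxidation supplies. Thiolase, encoded by *Acat1*, joins acetyl-CoA units into acetoacetyl-CoA at the start of the pathway, and β-hydroxybutyrate dehydrogenase (*Bdh1*) reduces acetoacetate to β-hydroxybutyrate at its end. The products leave the hepatocyte through monocarboxylate transporters, among which *Slc16a6* encodes a hepatocyte ketone body exporter. In other tissues *Bdh1* works in reverse, and succinyl-CoA:3-oxoacid CoA transferase (*Oxct1*) activates acetoacetate for oxidation. Hepatocytes in the liver are known for making very little of this transferase, so that they export ketone bodies rather than burn them. *Bdh2* encodes a cytosolic dehydrogenase that also acts on β-hydroxybutyrate.

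The libraries held between 17816913 and 23668940 counted reads. *Wdr6* lay between 40.6 and 49.0 CPM (counts scaled to a common library total, with the trimmed mean of M-values, TMM) in WT and between 2.23 and 2.58 in WDR6-WKO, which was 5.39% of the WT mean. WDR6-WKO 3 stood apart from the other knockout libraries, with a chi-square per gene of 14.3 and 15.9 against them, where every other pair within a genotype lay between 3.80 and 8.22. Without it 28.6% of genes were called, and each comparison below is also given without it where that changes a call. Hepatocyte markers were present, with *Alb* at 7366 ± 730 CPM in WT and 6480 ± 363 in WDR6-WKO, but *Tat* and *Pck1* were at about 1 to 2 CPM in WT. Of 14779 genes tested, 12.8% passed edgeR's quasi-likelihood test at a Benjamini-Hochberg adjusted p under 0.05, which is what called means below. Of the genes tested, 6.65% were called higher and 6.18% lower in WDR6-WKO.

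Among the 5 genes, *Bdh1* and *Acat1* were lower in WDR6-WKO, *Oxct1* and *Bdh2* were higher, and *Slc16a6* was at the same mean level to within 1 CPM. The ranges of the 2 genotypes did not overlap for 3 genes (*Bdh1*, *Bdh2* and *Oxct1*), beside 23.5% of all genes tested. Of the 5, 2 were called (*Oxct1* higher, *Bdh1* lower), beside the 12.8% of all genes. The study's own thresholds were a log2 fold change of at least 0.35 in size and an unadjusted p under 0.05. *Bdh1*, *Bdh2* and *Oxct1* passed those, beside 10.4% of all genes. The count called at adjusted p under 0.05 ran from 1 to 3 over the alternatives. *Oxct1* was called in all of them. *Bdh1* was not called without WT 1, WT 3, WT 4 or WDR6-WKO 2. *Acat1* was called by DESeq2, with the replicate block, and without WT 4, WDR6-WKO 2 or WDR6-WKO 3. Since the choice of genes used these values, nothing is read from these counts. In these bulk libraries, fewer cells of a type and less RNA per cell cannot be told apart.

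**Figure D1:**
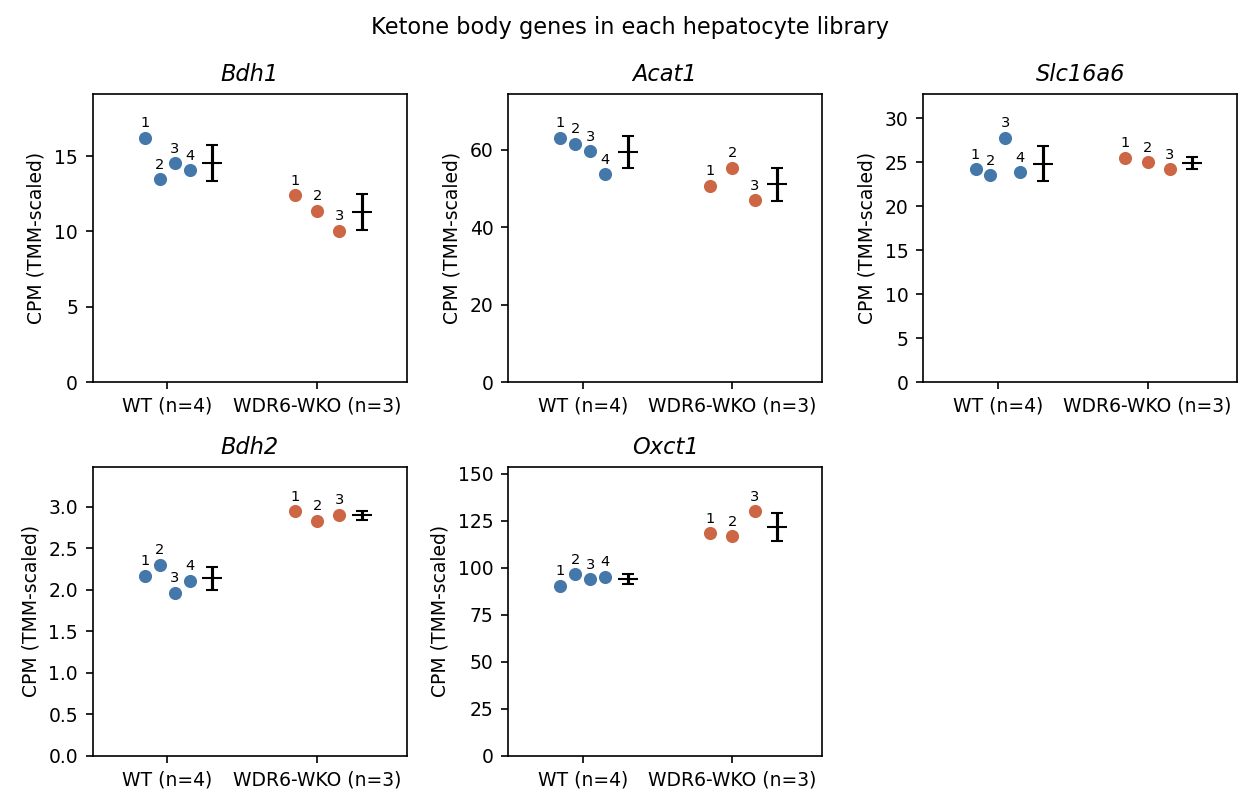
TMM-scaled CPM (y axis, from 0) of the 5 ketone body genes in each WT library (blue, n = 4) and each WDR6-WKO library (orange, n = 3), with the replicate number above each point and the mean ± s.d. beside each group. The WDR6-WKO points lie below all WT points for *Bdh1*, above them for *Oxct1* and *Bdh2*, and among them for *Slc16a6*, while for *Acat1* 1 of the 3 lies above the lowest WT point.

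*Acat1* (ENSMUSG00000032047, chr9:53580522-53610382, minus strand, GRCm38, 12 exons) opens the pathway and also ends isoleucine breakdown. Its levels in WT 1 to 4 were 63.1, 61.5, 59.6 and 53.7 CPM, and those in WDR6-WKO 1 to 3 were 50.7, 55.4 and 47.0. WT 4 was below the highest knockout library, so the ranges overlapped, and the knockout mean was 85.9% of that of WT. The log2 fold change was −0.22 ± 0.07 (SE). Between 842 and 1252 reads stood behind each value, and the spread among WT libraries (6.94% of the mean) was larger than the 2.94% that counting alone would give. Without WDR6-WKO 3 the log2 fold change was −0.17.

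*Bdh1* (ENSMUSG00000046598, chr16:31422280-31458901, plus strand, 7 exons in the longest transcript) carries out the last step and sets the balance between the 2 main ketone bodies. It was at 16.2, 13.5, 14.5 and 14.1 CPM in WT 1 to 4 and at 12.4, 11.4 and 10.1 in WDR6-WKO 1 to 3. Every knockout library was below every WT library, with a gap of about 1 CPM between the nearest of them, WT 2 and WDR6-WKO 1. The means were 14.6 ± 1.19 and 11.3 ± 1.19 CPM (s.d.), a log2 fold change of −0.36 ± 0.10, and the knockout mean was 77.5% of that of WT. Without WDR6-WKO 3, the lowest library, it was −0.29.

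Of other genes of ketone synthesis and use, 4 were tested, and 0 were called by edgeR, by DESeq2 or by limma-voom or had an unadjusted p under 0.05. Their log2 fold changes (edgeR adjusted p between 0.185 and 0.817) were −0.15 for *Acat2*, the cytosolic thiolase, −0.10 for *Hmgcs1*, of cholesterol synthesis, 0.03 for *Aacs*, which activates acetoacetate in the cytosol for lipid synthesis, and 0.43 for *Oxct2b*, a testis form of the transferase, at about 1 CPM. *Acat2* passed the test without WDR6-WKO 3 (log2 fold change −0.21, edgeR adjusted p = 0.0216). *Acat2* shared 39.1% of its 50-base stretches with *Acat3* and *Oxct2b* shared 42.3% with *Oxct2a*, so their counts are uncertain. *Hmgcll1* and *Oxct2a* were not analysed here.

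*Slc16a6* (ENSMUSG00000041920, chr11:109450855-109473598, minus strand, 6 exons in the longest transcript), the exporter, was at 24.2, 23.5, 27.8 and 23.8 CPM in WT 1 to 4 and at 25.5, 25.0 and 24.2 in WDR6-WKO 1 to 3. All 3 knockout libraries lay inside the WT range, and WT 3 was the highest of the 7. The log2 fold change was 0.01 ± 0.08 (0.02 without WDR6-WKO 3), and the means were 24.8 ± 2.0 and 24.9 ± 0.642 CPM. Its exons share 611 bases with the opposite-strand gene *Amz2* and 48 with *Arsg*, and whether the counting used strand was not given in the sources used here. *Amz2* was at 33.3 ± 2.2 CPM in WT and 31.4 ± 1.2 in WDR6-WKO, with a log2 fold change of −0.08 (edgeR adjusted p = 0.495).

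Other transporters that carry ketone bodies and lactate were measured in a list of 15 monocarboxylate transporters and their chaperones, of which 12 were tested. Of the 12, 2 fell (16.7%, beside 12.8% of all genes called) and the other 10 did not pass. Without WDR6-WKO 3, 4 fell (33.3%, beside 28.6% of all genes called). The log2 fold changes of the 12 had a median of −0.15, beside 0.01 over all genes. *Slc16a3*, the lactate exporter MCT4 of glycolytic cells, was at 28.2, 23.4, 21.6 and 26.6 CPM in WT and at 10.8, 10.3 and 6.26 in WDR6-WKO (log2 fold change −1.43 ± 0.16, edgeR adjusted p = 0.000118). *Slc16a12*, which carries creatine, was at 83.8 ± 3.65 CPM in WT and 58.5 ± 3.11 in WDR6-WKO (log2 fold change −0.52 ± 0.06, edgeR adjusted p = 2.9e-05). In both genes every knockout library was below every WT library. *Slc16a1*, which encodes MCT1 and moves ketone bodies and lactate in either direction, had a log2 fold change of −0.15 ± 0.06 that did not pass the test (edgeR adjusted p = 0.0858), but passed without WDR6-WKO 3 (−0.22, adjusted p = 0.000207).

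**Figure D2:**
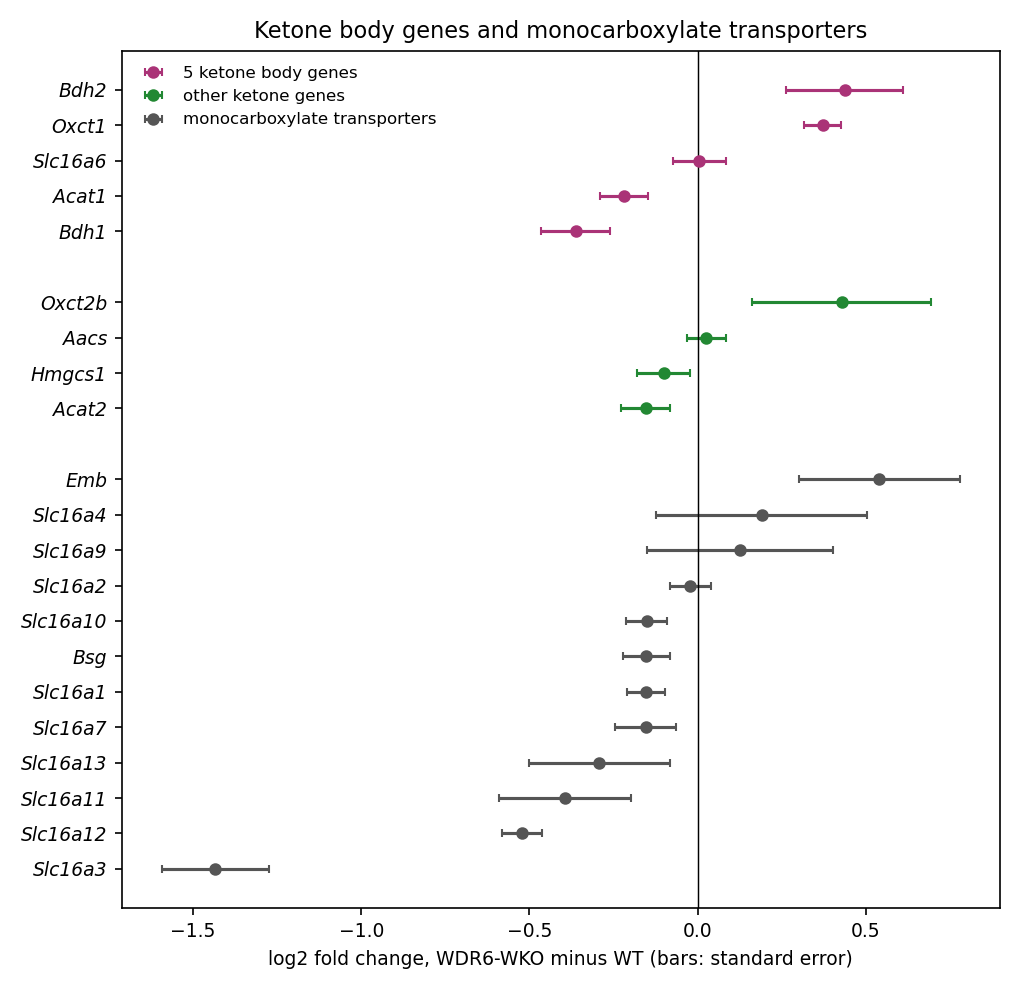
Log2 fold changes, WDR6-WKO minus WT (x axis), with standard errors (bars) for the 5 ketone body genes (purple), the other ketone genes (green) and the monocarboxylate transporters and chaperones (grey). *Slc16a3* at −1.43 lies farthest from 0, while the 5 genes lie between −0.36 and 0.44.

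*Oxct1* (ENSMUSG00000022186, chr15:4026383-4155344, plus strand, 17 exons in the longest transcript), the transferase of ketone body use, was at 90.3, 96.7, 93.9 and 95.3 CPM in WT 1 to 4 and at 118.3, 116.8 and 130.2 in WDR6-WKO 1 to 3. Every knockout library was above every WT library, and the nearest pair were WT 2 and WDR6-WKO 2. The means were 94.1 ± 2.72 and 122 ± 7.34 CPM, so that the knockout mean was 129.4% of that of WT. The log2 fold change was 0.37 ± 0.05, and 0.32 without WDR6-WKO 3, the highest library. With 1766 to 2846 reads in each library it was the most deeply counted of the 5 genes, and its WT spread of 2.89% was close to the 2.34% of counting alone. The annotation places 467 of its exon bases opposite *BC037032*, which was not a row of the table, as are 533 of *Bdh1* opposite *Gm15743*.

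*Bdh2* (ENSMUSG00000028167, chr3:135281221-135304426, plus strand, 10 exons), the cytosolic dehydrogenase, was at 2.17, 2.30, 1.97 and 2.11 CPM in WT and at 2.95, 2.84 and 2.90 in WDR6-WKO. Every knockout library was above every WT library, and the knockout mean was 135.5% of that of WT. Its log2 fold change of 0.44 ± 0.17 (0.43 without WDR6-WKO 3) had the largest standard error of the 5, and it rested on 37 to 71 reads in each library. Counting alone would give a spread of 15.5% among the WT libraries, more than the 6.53% they showed. *Bdh1* and *Bdh2* thus lay on opposite sides of WT.

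RefSeq (GRCm38.p6) held promoter windows for *Bdh1*, *Bdh2* and *Oxct1*, the genes whose genotypes did not overlap, and the bases upstream of their first exons are shown so that the promoters of the gene with lower counts and of those with higher counts can be read together. *Acat1* and *Slc16a6* had no entry. Letters in capitals mark CCAAT as read on the opposite strand (ATTGG).
*Bdh1*, chr16:31422047-31422279, plus strand: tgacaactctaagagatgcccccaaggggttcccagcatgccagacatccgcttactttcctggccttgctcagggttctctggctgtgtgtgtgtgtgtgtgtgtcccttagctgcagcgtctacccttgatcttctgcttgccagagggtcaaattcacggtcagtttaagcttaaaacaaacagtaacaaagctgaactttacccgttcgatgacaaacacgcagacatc
*Bdh2*, chr3:135280971-135281220, plus strand: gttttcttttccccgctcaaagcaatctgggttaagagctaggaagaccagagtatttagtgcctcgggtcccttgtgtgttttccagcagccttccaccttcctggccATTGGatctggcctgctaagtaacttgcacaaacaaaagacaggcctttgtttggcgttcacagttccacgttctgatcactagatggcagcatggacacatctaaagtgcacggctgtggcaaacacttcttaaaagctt
*Oxct1*, chr15:4026178-4026382, plus strand: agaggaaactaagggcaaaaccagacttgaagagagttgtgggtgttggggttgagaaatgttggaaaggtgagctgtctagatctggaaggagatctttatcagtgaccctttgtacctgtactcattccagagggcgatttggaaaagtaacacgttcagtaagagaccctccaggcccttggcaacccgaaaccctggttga

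The 250 bases before each start were searched on both strands for AGGTCA (the nuclear receptor half-site), for DR1 (2 copies of that half-site in the same direction with 1 base between, each copy also a half-site match), for CCAAT (the NF-Y box), for the GC box GGGCGG and for TGATG (the opening letters of the composite element of ATF4 and C/EBP). Of 32851 such windows over all genes, 14.0% held the half-site, 0.0335% DR1, 33.8% the NF-Y box, 32.7% the GC box and 34.5% the last motif. The *Bdh2* window held CCAAT once, 141 bases before the start, and the *Oxct1* window held TGATG once, 48 bases before the start, across the end of the stretch shown. Neither window of *Bdh1*, which has 2 annotated starts in RefSeq, held any of these letters. The windows of *Bdh1* were 49.6% and 60.8% G and C, that of *Bdh2* 48.0% and that of *Oxct1* 52.0%.

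Levels were compared between genes as CPM per kilobase of the mean coding transcript length. On this scale *Oxct1* was the highest of the 5 in WT at 35.7 ± 1.03, followed by *Acat1* at 17.5 ± 1.21, *Slc16a6* at 7.56 ± 0.608, *Bdh1* at 6.91 ± 0.565 and *Bdh2* at 1.92 ± 0.125. The WT ranges of *Slc16a6* (7.15 to 8.46) and *Bdh1* (6.38 to 7.70) overlapped, so these neighbours did not differ beyond their spread, while those of every other pair of neighbours were apart. In WDR6-WKO the order of the 5 was the same, at 46.2 ± 2.79, 14.99 ± 1.23, 7.58 ± 0.195, 5.35 ± 0.564 and 2.60 ± 0.052, and the ranges of *Slc16a6* and *Bdh1* no longer overlapped. With the length of the longest transcript in place of the mean, *Oxct1* was at 26.7 in WT, *Slc16a6* at 5.89 and *Bdh1* at 4.67, and the order of the 5 was kept. The transferase of ketone body use had the highest level per length of the 9 ketone genes compared in both genotypes of these cultured cells, although with the longest transcript it stood level with *Hmgcs1* in WT (26.7 and 26.6).

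**Figure D3:**
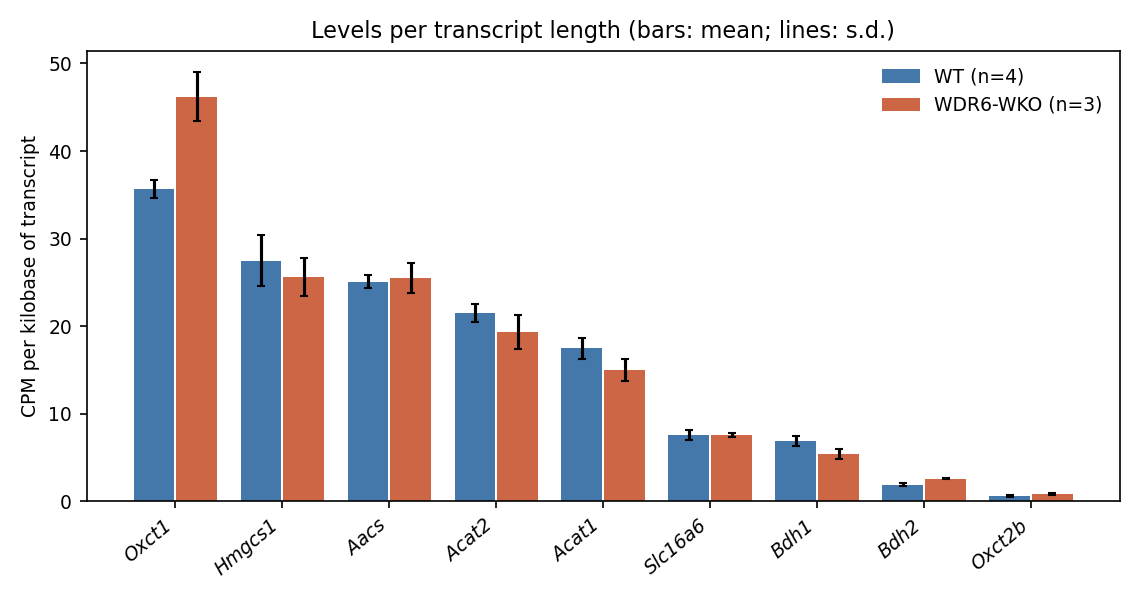
CPM per kilobase of mean coding transcript length (y axis, from 0) for the 5 ketone body genes and 4 related genes, as means (bars) ± s.d. (lines) in WT (blue, n = 4) and WDR6-WKO (orange, n = 3), ordered by the WT mean. *Oxct1* stands highest in both genotypes, at 35.7 and 46.2, and *Slc16a6* and *Bdh1* stand close in WT.

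The genes whose log2 CPM followed each of the 5 most closely over the 7 libraries were sought among 9327 genes of at least 10 CPM. The libraries fall into 2 genotypes, so these values of Pearson's r reflect the difference between the genotypes as well as the spread within them, and they are given without a test. *Bdh1* was followed by *Wbp1l* (r = 0.993), *Nr1i2* (0.990), which encodes the xenobiotic receptor PXR, and *Zfp319* (0.989). *Acat1* was followed by *Cebpa* (0.974), which encodes a hepatocyte transcription factor, *Scly* (0.972), which encodes selenocysteine lyase, and *Tubb4b* (0.972), a tubulin gene. *Oxct1* was followed by *Ereg* (0.995), which encodes the growth factor epiregulin, *Mapk6* (0.993), which encodes the kinase ERK3, and *Tmem209* (0.993). For *Oxct1*, 124 genes had an r above 0.95, beside 55 for *Bdh1*, 66 for *Bdh2* and 13 for *Acat1*. *Bdh2* was followed by *Wdr5* (0.995), *Ccl2* (0.993), which encodes a monocyte chemokine, and *Cfap43* (0.990). For *Slc16a6* no gene reached 0.95, and *Rnf31* (0.922), *Hpx* (0.915) and *Helq* (0.912) came nearest.

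The wider pathway was followed in lists of the genes that regulate ketone synthesis, supply its acetyl-CoA or use acetyl-CoA in other ways. Of 81 genes tested in all lists, with the 5 left out, 10 were called (3 higher and 7 lower), and 71 did not pass the test. Over all genes tested, 12.8% were called. Without WDR6-WKO 3, 21 of the 81 were called (6 higher and 15 lower), beside 28.6% of all genes. Both counts were near the share over all genes. Over these 81 genes the log2 fold change had a median of −0.04. Among 12 regulators tested, *Angptl4*, a PPARα target that inhibits lipoprotein lipase, rose (215 ± 12.4 to 258 ± 19.1 CPM, log2 fold change 0.26 ± 0.06, edgeR adjusted p = 0.00772). *Gcgr*, the glucagon receptor, fell from 11.4 ± 0.959 to 7.87 ± 1.03 CPM (−0.52 ± 0.12, edgeR adjusted p = 0.00852). *Ppara*, the nuclear receptor that drives ketone synthesis in fasting, had a log2 fold change of −0.26 ± 0.11 and did not pass the test (edgeR adjusted p = 0.145). *Fgf21* was not tested.

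Of 17 genes that bring fatty acids into mitochondria and oxidise them, 2 fell and 15 did not pass the test. The share called was 11.8%, beside 12.8% of all genes tested. Without WDR6-WKO 3, 5 were called (1 higher, 4 lower), which was 29.4% beside 28.6% of all genes. *Cpt2*, which rebuilds acyl-CoA inside the mitochondrion, was at 47.4 ± 2.47 CPM in WT and 39.5 ± 0.699 in WDR6-WKO (log2 fold change −0.26 ± 0.06, edgeR adjusted p = 0.0112), and every knockout library was below every WT library. *Etfdh*, which passes electrons from the oxidation steps to ubiquinone, had a log2 fold change of −0.18 ± 0.06 (edgeR adjusted p = 0.0446, between 0.0097 and 0.149 over the alternatives). *Hadhb*, the thiolase subunit of the trifunctional protein, had a log2 fold change of −0.16 ± 0.06 that did not pass the test (edgeR adjusted p = 0.0911) but passed without WDR6-WKO 3 (adjusted p = 0.00202). Of the 6 thiolases other than *Acat1*, 0 were called by edgeR, by DESeq2 or by limma-voom, and 4 had an unadjusted p under 0.05. All 6 had negative log2 fold changes, with a median of −0.16, and 3 were called without WDR6-WKO 3, beside 28.6% of all genes. The remaining named thiolases were *Acaa1b*, of peroxisomes (−0.37 ± 0.15, edgeR adjusted p = 0.123), and *Scp2* (−0.14 ± 0.05, adjusted p = 0.0793).

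Of 15 genes of the breakdown of leucine, isoleucine and valine, *Hsd17b10*, which acts just before *Acat1* on the isoleucine route, was higher (38.3 ± 0.712 to 44.6 ± 2.68 CPM, log2 fold change 0.22 ± 0.06, edgeR adjusted p = 0.0306). *Aldh6a1*, an enzyme of valine breakdown, was lower (34.8 ± 1.84 to 28.04 ± 2.27 CPM, −0.31 ± 0.08, adjusted p = 0.0128), and *Bckdha* had a log2 fold change of −0.29 ± 0.14 (edgeR adjusted p = 0.191). Among 18 genes of pyruvate entry and the tricarboxylic acid cycle, *Pdhb*, a subunit of pyruvate dehydrogenase, rose (79.1 ± 1.77 to 93.1 ± 3.38 CPM, 0.23 ± 0.05, edgeR adjusted p = 0.00769). *Pcx*, which makes oxaloacetate from pyruvate, fell (105.9 ± 0.718 to 92.1 ± 7.99 CPM, −0.20 ± 0.06, edgeR adjusted p = 0.037), and *Fh1*, fumarase, had a log2 fold change of −0.15 ± 0.06 (adjusted p = 0.105). Of the 18, 11.1% were called, beside 12.8% of all genes tested. Without WDR6-WKO 3, 6 of the 18 were called in place of 2 (3 higher, 3 lower), which was 33.3% beside 28.6% of all genes. *Fh1* was among these 6 (−0.19, edgeR adjusted p = 0.00694). Calls for *Etfdh*, *Hsd17b10* and *Pcx* each ended under 6 or 7 of 14 alternatives.

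**Figure D4:**
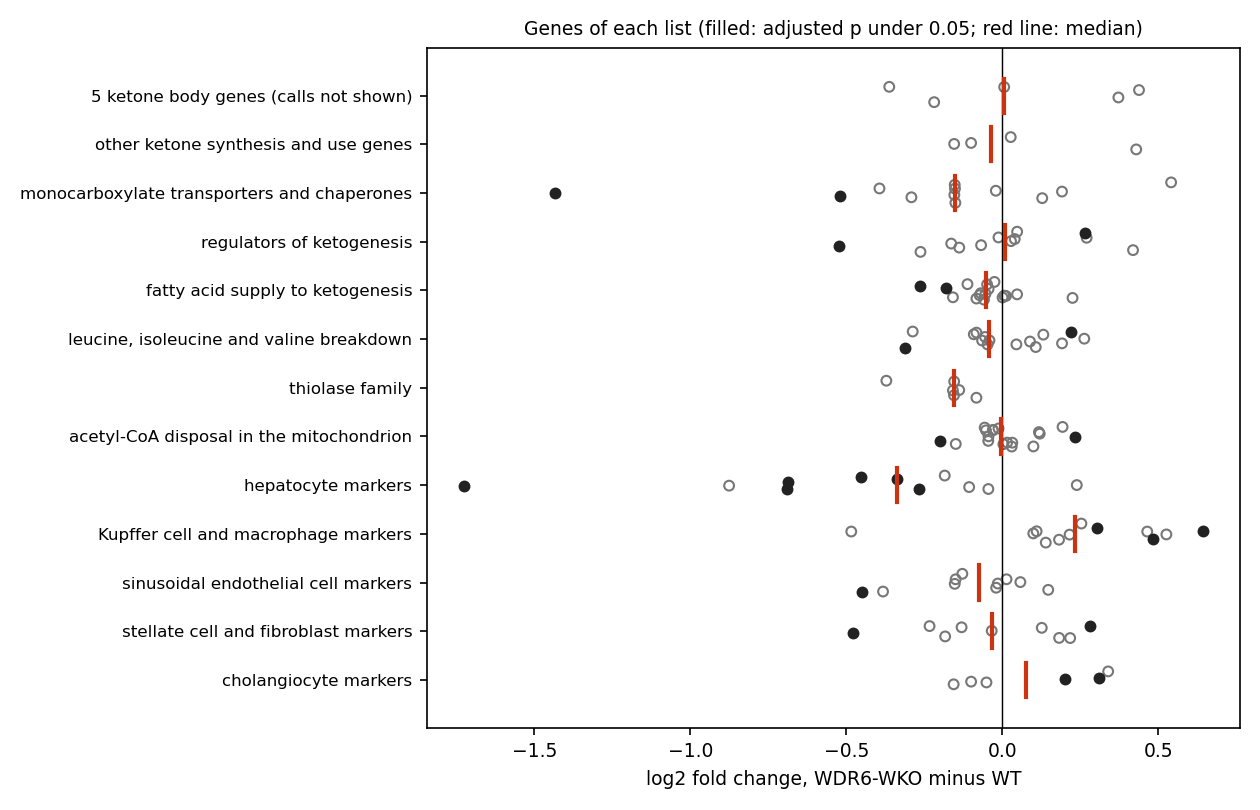
Log2 fold change, WDR6-WKO minus WT (x axis), of each gene tested in the 5 ketone body genes, the pathway lists and the cell type marker lists (rows), filled where the adjusted p was under 0.05 and with the median of each list as a red line. The 5 ketone body genes are drawn open whatever the fit gave, since they were selected on these values, and the hepatocyte marker median of −0.34 and the Kupffer cell median of 0.23 lie on opposite sides of 0.

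Some markers of liver cell types differed between the genotypes, where 12.8% of all genes tested were called. Of 11 hepatocyte markers tested, 6 were lower in WDR6-WKO (*Apoa1*, *Hnf4a*, *Cps1*, *Pck1*, *Cyp2e1* and *Fgb*) and none was higher, with a median log2 fold change of −0.34. Their summed level was 15702 to 18686 CPM in WT and 14151 to 16194 in WDR6-WKO. Of 12 Kupffer cell and macrophage markers, *C1qb*, *C1qc* and *Lyz2* were higher and 9 were not called. Among those 9, *Clec4f* and *Csf1r* had log2 fold changes of 0.10 and 0.11. *Timd4* went the other way (−0.48, edgeR adjusted p = 0.088), with every knockout library below every WT library. The sum of the 12 was 859.5 to 938.8 CPM in WT and 993 to 1191 in WDR6-WKO. Of 6 cholangiocyte markers, *Sox9* and *Spp1* were higher, and the sum, mostly *Spp1* (2980 ± 178 CPM in WT), was 3099 to 3394 CPM in WT and 3742 to 4337 in WDR6-WKO. Of 9 stellate cell markers, *Dcn* was higher and *Rgs5* lower (547 to 608 against 583 to 629 CPM), and of 10 endothelial markers *Tek* was lower (330 to 378 against 311 to 368 CPM). The single lymphocyte marker tested, *Ptprc*, was at 12.9 to 16.0 CPM in WT and 14.2 to 15.3 in WDR6-WKO. No tested marker was at 0 in a library. Without WDR6-WKO 3, 7 hepatocyte markers were lower and 7 Kupffer cell and macrophage markers higher, beside 28.6% of all genes called. The Kupffer cell and cholangiocyte sums, like *Oxct1* and *Bdh2*, did not overlap between the genotypes and were higher in WDR6-WKO. The hepatocyte sums of the genotypes overlapped, but they were mostly *Alb* and *Apob* (7366 and 5845 CPM in WT). Of the 11 hepatocyte markers, 6 were lower in every knockout library than in any WT library, beside 11.7% of all genes tested. The part of cell makeup in the values of the 5 genes was not tested.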

How the data were processed

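RNA sequencing libraries of primary hepatocytes (4 WT, 3 WDR6-WKO) were analysed. The authors deposited raw read counts per gene. The submitters' processing notes name Bowtie2 2.2.3 and mm10, while the counting tool, annotation and use of strand were not given in the sources used here. The deposited counts held 14819 genes and no row totalled fewer than 50 reads. Counts were scaled by TMM, 14779 genes passed filterByExpr, and edgeR 4.0.16 (R 4.3.3; robust quasi-likelihood test, two-sided, Benjamini-Hochberg adjustment over all tested genes) compared the genotypes without covariates. The biological coefficient of variation was 7.4%. On simulated counts (14711 genes, 200 changed), 59 of 100 genes changed 1.5-fold and 86 of 100 changed 2-fold were recovered. In the same run 14 unchanged genes were called, beside the 59 and 86 recovered. All simulated libraries of a genotype were drawn alike, so none stood apart as WDR6-WKO 3 did. The 5 genes differed by less than 1.5-fold, and recovery at such sizes was not simulated. The genes, lists and thresholds were chosen with earlier results of these data known. Named genes were the 5 genes, *Wdr6*, the other ketone genes, the 3 smallest p in each pathway list, and the 3 genes most like each of the 5. Transcript lengths came from GENCODE M21 and promoters from RefSeq. The labels do not name the mouse behind each library, so p-values measure the spread between libraries. Deviations of same-numbered libraries correlated at 0.0689, 0.0311 and 0.0566, and the numbers were not used as pairs. DESeq2 1.42.0, limma-voom (limma 3.58.1), other scalings and filters, a replicate block and leaving out each library were alternatives. The planned comparison of protein sequences was not run, and some listed genes are not reported here.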

Additional observations from a re-analysis of the deposited data

Results flagged for a closer look

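Of 42 genes checked, 4 had a WT library whose gap to the nearest other library was a larger share of the range of the 4 WT libraries than Dixon's 95% limit allows, where chance gives about 1 in 20. *Slc16a6* was highest in WT 3, at 27.8 CPM against 23.5 to 24.2 in the others (share 0.84). *Angptl4* was highest in the same library, at 233.7 CPM against 207.3 to 211.5 (share 0.842). *Hadhb* was lowest in it, at 109.8 CPM against 117.7 to 118.2 (share 0.932). *Mapk6*, one of the genes nearest to *Oxct1*, was lowest in WT 1, at 229.1 CPM against 245.7 to 247.8 (share 0.888). Leaving out WT 3 changed the log2 fold change of *Slc16a6* to 0.06.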

How the results depend on the processing

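The log2 fold changes of the 5 genes moved by less than the spread between libraries under all 14 alternatives: −0.44 to −0.29 for *Bdh1*, 0.40 to 0.48 for *Bdh2*, −0.28 to −0.17 for *Acat1*, 0.32 to 0.40 for *Oxct1* and −0.02 to 0.06 for *Slc16a6*. With the replicate block, which has no pairing behind it, they were −0.38, 0.43, −0.27, 0.38 and −0.01, and 1762 genes were called in place of 1897. Leaving out 1 library gave 1032 to 4233 genes called (570 to 2150 higher, 462 to 2083 lower) and, in the pathway lists, 5 to 21 (1 to 6 higher, 4 to 15 lower). Without WDR6-WKO 3, 4233 genes were called, and without WDR6-WKO 2, WDR6-WKO 1, WT 4 or WT 3, 1032, 1180, 1182 or 1210, and without WT 2, 605 lower. With the study's thresholds (log2 fold change of at least 0.35 in size and an unadjusted p under 0.05), 583 genes were lower, and 5 pathway genes were called (1 higher, 4 lower). With library totals alone, 63.5% of calls were higher in WDR6-WKO in place of 51.8%. With the longest transcript, the WT levels were 26.7 CPM per kilobase for *Oxct1*, 5.89 for *Slc16a6* and 4.67 for *Bdh1*. Single calls were lost for *Aldh6a1* without WT 3 (edgeR adjusted p = 0.054) or WDR6-WKO 2 (0.0779), for *Angptl4* without WDR6-WKO 2 (0.0505) and for *Cpt2* without WT 2 (0.0507). With the block, *Etfdh* (0.0944) and *Hsd17b10* (0.0534) lost theirs and *Fh1* (0.0392) and *Acat1* gained one. *Bdh1* lost its call without WT 1, WT 3, WT 4 or WDR6-WKO 2. The cause was not tested. Of the 5 genes, depth limits the precision of *Bdh2* most, at 37 to 71 reads a library.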
